A study of Homo sapiens with 6 samples.

Results

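Matrix metalloproteinases (MMPs) and their tissue inhibitors (TIMPs) were followed after silencing of PSENEN in HaCaT, a human keratinocyte line that grows without limit in culture. The members were the 7 metalloproteinases MMP1, MMP9, MMP10, MMP13, MMP14, MMP15 and MMP28 and the 3 inhibitors TIMP1, TIMP2 and TIMP3, 10 of the 27988 genes named in the deposited assemblies, chosen by gene name. They and the related lists below were chosen with earlier results of these data known, so the shares over all genes beside them are descriptive. Each level is the sum of TPM (an abundance corrected for transcript length and library size) over the assembled transcripts that carry the gene's reference name. Cells received 100 pmol of an siRNA against PSENEN (3 libraries, called PSENEN siRNA) or, as the control, a mismatch siRNA (3 libraries, called mismatch siRNA). Both groups carry the transfection itself. A group given the transfection reagent alone, which the labels describe, was not analysed here. RNA was taken at 48 and 72 h per the labels, which do not say which time was sequenced. They also do not say that the 3 libraries of a group came from separate cultures, so p-values measure the spread between these libraries, which may be technical.

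MMPs are zinc-dependent proteases that cut collagens, laminins, other matrix proteins and proteins on cell surfaces. They are made as inactive proenzymes and are switched on by removal of the propeptide. Furin removes it inside the cell for some members, the membrane-anchored ones among them, or proteases such as plasmin do so outside the cell. TIMPs bind the active site and block it. TIMP2 has a further role: it bridges MMP14 at the cell surface to the proenzyme of MMP2, which MMP14 then cleaves. In skin, keratinocytes make several MMPs at wound edges. The PSENEN product is part of γ-secretase, a protease complex in the membrane with Notch receptors among its substrates.

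The targeted gene followed its label. PSENEN was at 1.75, 2.08 and 1.50 TPM in PSENEN siRNA libraries, against 6.58, 8.85 and 6.55 TPM in mismatch siRNA libraries (log2 change -1.58, adjusted p = 0.0471 by limma with Benjamini-Hochberg adjustment over all 15647 genes tested). With each library left out in turn its adjusted p lay between 0.110 and 0.155. All 9 keratinocyte markers were detected and none was called, with a summed level of 3534 to 4343 TPM in PSENEN siRNA libraries and 3864 to 8307 TPM in mismatch siRNA libraries. Of the 9, 8 had a negative log2 change (median -0.38, against -0.04 over all genes tested) and 7 were lower without overlap (KRT5, KRT17, KRT6A, TP63, SFN, CDH1 and DSG3), where 13.7% of all genes were, and the part of this in the results below was not tested. The exception, KRT14, was at 1559, 1419 and 1313 TPM in PSENEN siRNA libraries, against 675, 3913 and 146 TPM in mismatch siRNA libraries. By coverage over annotated exons, whether or not an assembled transcript carries a reference name, 2 of the 9, KRT17 and CDH1, were called lower, where 0.962% of all genes were, and with 1 library left out KRT17 kept the call in 1 of 6 fits and CDH1 in 0. By this measure KRT14 was no exception, with a log2 change of -1.13 (limma adjusted p = 0.0664), against 0.97 by reference transcripts. Fibroblast markers summed to 0.460 to 1.01 TPM in PSENEN siRNA libraries and 1.18 to 1.47 TPM in mismatch siRNA libraries, with COL1A2, LUM, PDGFRA and PDGFRB listed at 0 throughout. Leukocyte markers summed to 0.877 to 2.08 TPM in PSENEN siRNA libraries and 1.66 to 1.95 TPM in mismatch siRNA libraries, and endothelial and melanocyte markers to at most 0.545 TPM in any library. PTPRC, CD3E, LYZ, PECAM1, KDR, MLANA, TYR and DCT were listed at 0 in all 6 libraries. Depth, estimated from the ratio of coverage to FPKM, was 9.16 to 11.9 gigabases in PSENEN siRNA libraries and 11.5 to 15.6 gigabases in mismatch siRNA libraries (two-sided exact permutation p = 0.2, where 0.1 is the smallest that 3 against 3 libraries allow). The assemblies held 167955 to 181298 transcripts in PSENEN siRNA libraries and 185198 to 193153 in mismatch siRNA libraries, with no overlap (exact permutation p = 0.1).

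Of the 10 genes, 8 reached 1 TPM in at least 3 libraries and were tested. TIMP2 was lower in PSENEN siRNA libraries and was the only one called at an adjusted p under 0.05, which is 1 of 8 where 0.409% of all genes tested were called in either direction and 0.281% lower. MMP14, MMP15 and MMP28 did not overlap between the groups either and were lower, which makes 4 of 8 with TIMP2, where the groups did not overlap for 21.9% of all genes tested and were lower without overlap for 13.7%. MMP1, MMP13, TIMP1 and TIMP3 overlapped. MMP10 and MMP9 were below the filter and depended on how the assembly was read. The 8 tested genes had a median log2 change of -0.26, against -0.04 over all genes tested. In RNA from whole cultures, fewer cells making a transcript and less of it per cell cannot be told apart.

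**Figure D1:**
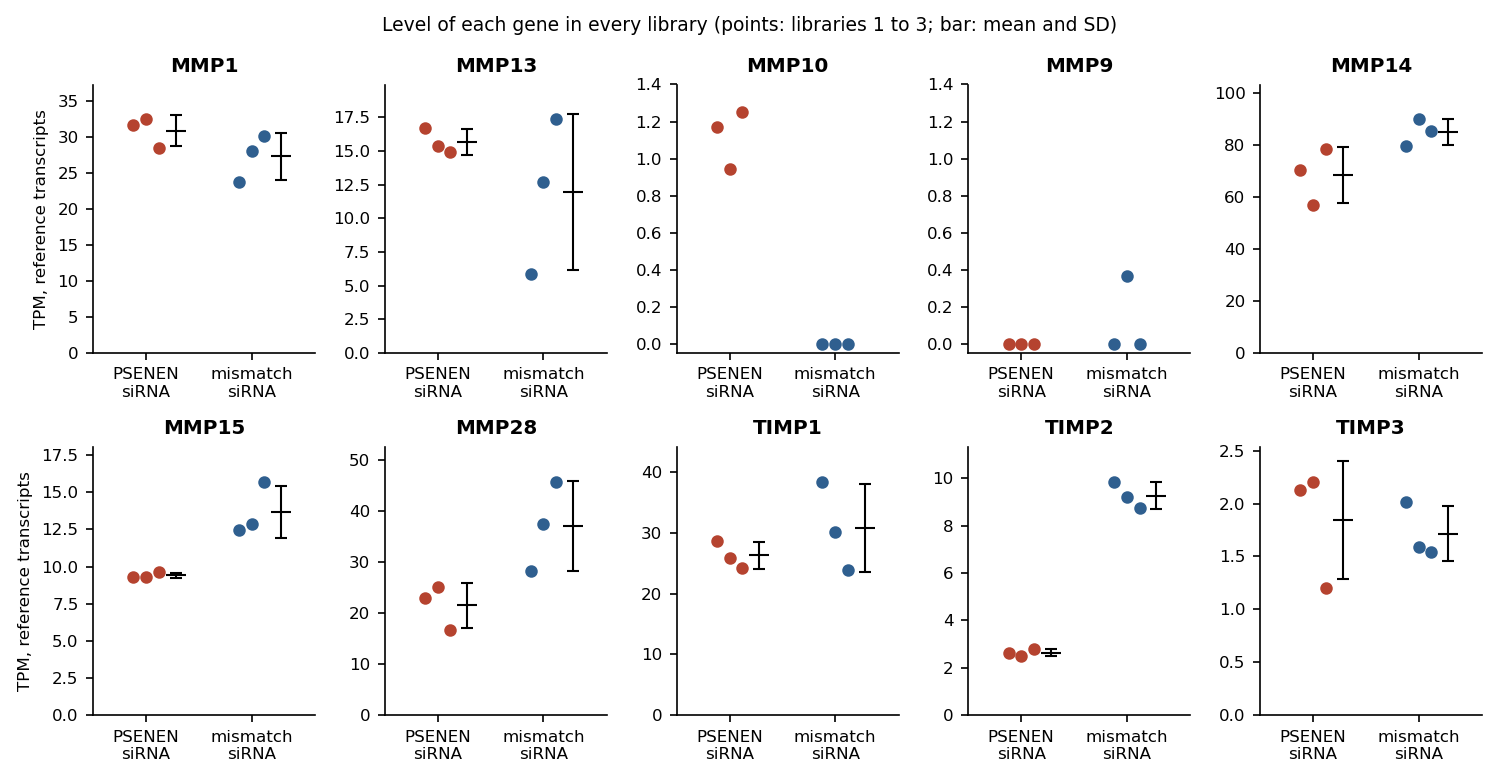
TPM of each MMP and TIMP gene, summed over reference transcripts, in the 3 PSENEN siRNA libraries (left, red) and the 3 mismatch siRNA libraries (right, blue); the bar beside the points is the mean with its SD, left out for MMP10 and MMP9, and each panel has its own scale. TIMP2 sits between 2.49 and 2.78 TPM in PSENEN siRNA libraries and between 8.73 and 9.85 TPM in mismatch siRNA libraries, while MMP1, MMP13, TIMP1 and TIMP3 overlap.

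TIMP2, the inhibitor that also serves in the activation of MMP2, was at 2.64, 2.49 and 2.78 TPM in PSENEN siRNA libraries, against 9.85, 9.21 and 8.73 TPM in mismatch siRNA libraries. Every PSENEN siRNA library lay below every mismatch siRNA library, and the values within each group were close together. The means were 2.64 ± 0.145 TPM in PSENEN siRNA libraries and 9.26 ± 0.560 TPM in mismatch siRNA libraries (SD, n = 3 each), 3.51-fold higher in mismatch siRNA libraries. On the log2(TPM + 1) scale, which understates the change of low genes, TIMP2 fell by 1.50 (SE 0.13, 95% interval -1.82 to -1.17, limma adjusted p = 0.0253). Left out in turn, PSENEN siRNA library 1, 2 or 3 gave an adjusted p of 0.104, 0.102 or 0.0981, and mismatch siRNA library 1, 2 or 3 one of 0.0913, 0.111 or 0.104, so no fit with 5 libraries kept the call, while the log2 change stayed between -1.53 and -1.45. In the same fits no more than 16 genes of all those tested were called, and as few as 7.

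The TIMP2 gene (ENSG00000035862) lies on the minus strand of chromosome 17 at 78852977 to 78925387 in GRCh38, and 2 of its reference transcripts were assembled. The main one, ENST00000262768, spans 3652 bases in 5 exons, was at 1.91, 2.06 and 2.45 TPM in PSENEN siRNA libraries, against 9.72, 7.55 and 6.97 TPM in mismatch siRNA libraries, and was not called when reference transcripts were tested one by one (log2 change -1.52, limma adjusted p = 0.0649, with 0.37% of 26204 transcripts called). The shorter ENST00000586057 was at 0.733, 0.429 and 0.331 TPM in PSENEN siRNA libraries, against 0.128, 1.66 and 1.76 TPM in mismatch siRNA libraries. How TIMP2 was divided between its transcripts therefore varied from library to library, and the sum over both varied less. Mean coverage along the main transcript was 11.4, 10.1 and 9.47 in PSENEN siRNA libraries, against 52.9, 43.7 and 35.4 in mismatch siRNA libraries, and all of its bases were covered in every library. Mean coverage along a transcript and bases of coverage, here and below, are not scaled to depth. Mean depth was 10.8 gigabases in PSENEN siRNA libraries and 13.6 gigabases in mismatch siRNA libraries. Plus-strand transcripts within the span of the gene, where antisense genes are annotated, held 2239 to 4392 bases of coverage in PSENEN siRNA libraries and 6978 to 14288 in mismatch siRNA libraries, and their part in the result was not tested. The protein-coding gene CEP295NL is annotated on the same strand as TIMP2 and overlaps its span, and its part was not tested either. None of the 25 assembled transcripts of the 10 genes was called, of which 9 could be tested.

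The 3 genes whose levels over the 6 libraries were most like those of TIMP2 were PHLDB1, ATP5SL and TMEM87B, out of 9286 genes with a mean of at least 5 TPM. Likeness was the root mean square difference of the centred log2(TPM + 1) values, which was 0.17 for PHLDB1 and 0.18 for each of the others. PHLDB1 was at 8.76, 10.6 and 10.8 TPM in PSENEN siRNA libraries, against 25.9, 23.3 and 25.9 TPM in mismatch siRNA libraries. That all 3 were lower in PSENEN siRNA libraries follows from this choice.

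An earlier search of these data picked out the word TGGTTCT, which occurs in the coding sequence of PSENEN, as frequent in the 3′ UTRs of lower genes. The sequence of the siRNA was not analysed here, so whether the word belongs to it is not known. The word occurs in TIMP2 at bases 3018 to 3024 and 3059 to 3065 of ENST00000262768, after the stop codon, on the minus strand of chromosome 17 (chr17:78853595-78853621 and chr17:78853554-78853580 for the stretches shown), and in PSENEN on the plus strand of chromosome 19 (chr19:35746453-35746479). These stretches are shown because TIMP2 is the only one of the 10 genes that was called; the capitals mark the word, and the sequences are those of GENCODE 29 on GRCh38.
TIMP2, first match: gtctttccttTGGTTCTttgagcatct
TIMP2, second match: ctcccgtcttTGGTTCTccagttcaaa
PSENEN, coding match: caacatcttcTGGTTCTtccgagaggc
The word was searched on the transcript strand only. Of 10165 tested protein-coding genes with an annotated 3′ UTR, 1388 (13.7%) held it there. Of the 10 MMP and TIMP genes, of which MMP10 and MMP9 are not in that count, 4 did: TIMP2 with 2 matches, and MMP13, MMP15 and TIMP3 with 1 each. Their 3′ UTRs are long, at 2690, 1271, 1455 and 3666 bases, where the median of the counted genes is 978 bases. The log2 changes of MMP13, MMP15 and TIMP3 were 0.47, -0.49 and 0.05, and none of them was called. As the word was chosen on these libraries, its presence in TIMP2 is a description of the sequence.

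TIMP1, a secreted inhibitor of most MMPs, was at 28.7, 25.9 and 24.3 TPM in PSENEN siRNA libraries, against 38.4, 30.2 and 23.9 TPM in mismatch siRNA libraries. The groups overlapped, mismatch siRNA library 3 lying below all PSENEN siRNA libraries. The log2 change was -0.20 (95% interval -0.65 to 0.25, limma adjusted p = 0.684). It was -0.034 without mismatch siRNA library 1 and -0.37 without mismatch siRNA library 3. Between 80.8% and 85.2% of TIMP1 was assigned to ENST00000218388 in PSENEN siRNA libraries and mismatch siRNA library 1, and 90.9% and 93.8% in mismatch siRNA libraries 2 and 3. TIMP1 lies on the plus strand of chromosome X at 47582313 to 47586789, within SYN1 on the other strand, and no assembled transcript of the minus strand covered it.

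TIMP3, which binds to the matrix and inhibits several ADAM proteases as well as MMPs, was at 2.13, 2.21 and 1.20 TPM in PSENEN siRNA libraries, against 2.01, 1.59 and 1.54 TPM in mismatch siRNA libraries. PSENEN siRNA library 3 was the lowest of all 6 and PSENEN siRNA library 2 the highest. The log2 change was 0.05 (95% interval -0.47 to 0.57, limma adjusted p = 0.941). It turned to -0.03 without PSENEN siRNA library 1 and to -0.04 without PSENEN siRNA library 2. TIMP3 lies on the plus strand of chromosome 22 at 32801701 to 32863043, inside SYN3 on the other strand.

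MMP14, the membrane-anchored protease that TIMP2 both inhibits and links to MMP2, was the most abundant of the 10 genes. It was at 70.2, 56.9 and 78.5 TPM in PSENEN siRNA libraries, against 79.8, 89.8 and 85.5 TPM in mismatch siRNA libraries. The groups were separated by the gap between 78.5 and 79.8 TPM, which is small beside the range inside the PSENEN siRNA group. The means were 68.5 ± 10.9 TPM in PSENEN siRNA libraries and 85.0 ± 5.03 TPM in mismatch siRNA libraries (SD, n = 3 each), and the log2 change was -0.32 (SE 0.14, 95% interval -0.65 to 0.02, limma adjusted p = 0.403), or -0.19 without PSENEN siRNA library 2. MMP14 lies on the plus strand of chromosome 14 at 22836557 to 22849027. Its main transcript ENST00000311852 held at least 96.6% of its level in every library.

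MMP15, the second membrane-anchored protease, was at 9.30, 9.32 and 9.60 TPM in PSENEN siRNA libraries, against 12.5, 12.9 and 15.7 TPM in mismatch siRNA libraries. The PSENEN siRNA values were nearly equal and all below the mismatch siRNA values. The log2 change was -0.49 (SE 0.13, 95% interval -0.81 to -0.16), which passed before adjustment (limma unadjusted p = 0.0100) and not over all genes (limma adjusted p = 0.220). With unnamed transcripts that share an intron with it added, MMP15 was at 9.30, 10.5 and 10.7 TPM in PSENEN siRNA libraries. These values were less alike and still below all mismatch siRNA values (log2 change -0.39, limma adjusted p = 0.277). The gene lies on the plus strand of chromosome 16 at 58025566 to 58046901.

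MMP28, or epilysin, a secreted protease found in skin keratinocytes, was at 22.9, 25.0 and 16.6 TPM in PSENEN siRNA libraries, against 28.1, 37.3 and 45.6 TPM in mismatch siRNA libraries. The groups did not overlap and the mismatch siRNA libraries were spread widely. The log2 change was -0.75 (SE 0.23, 95% interval -1.31 to -0.20, unadjusted p = 0.0160, limma adjusted p = 0.268). Of the tested members, 3 passed before adjustment (TIMP2, MMP15 and MMP28), where 13.0% of all genes did. MMP28 lies on the minus strand of chromosome 17 at 35756249 to 35795707, overlaps TAF15 and C17orf50 on the plus strand, and is divided over 7 assembled reference transcripts. Plus-strand transcripts over its span held 62305 to 160321 bases of coverage in PSENEN siRNA libraries and 244195 to 295590 in mismatch siRNA libraries; the libraries are not stated to keep strand, and the part of this in the level of MMP28 was not tested. Further assembled transcripts share an intron with it and carry no reference name. With these added, MMP28 was at 33.5, 29.2 and 31.5 TPM in PSENEN siRNA libraries, against 31.2, 62.1 and 66.1 TPM in mismatch siRNA libraries. The groups then overlapped through mismatch siRNA library 1 (log2 change -0.67, limma adjusted p = 0.350). By coverage over annotated exons they did not, at 18.6, 16.7 and 16.3 on the TPM scale in PSENEN siRNA libraries, against 20.4, 32.8 and 42.2 in mismatch siRNA libraries (log2 change -0.79, limma adjusted p = 0.200).

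**Figure D2:**
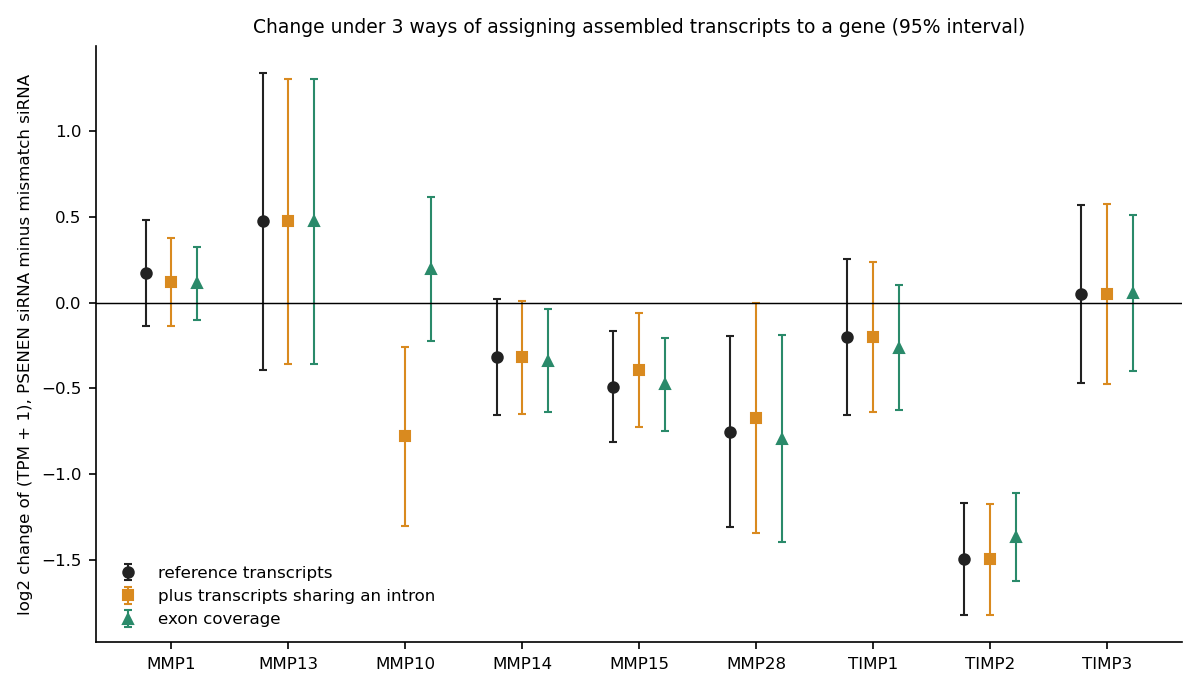
Log2 change of each testable gene, PSENEN siRNA minus mismatch siRNA, on the log2(TPM + 1) scale with its 95% interval, for reference transcripts (circles), with transcripts that share an intron added (squares) and for coverage over annotated exons (triangles). TIMP2 lies between -1.50 and -1.37 under all 3, while MMP10 is at -0.78 under the second and 0.20 under the third and was below the filter under the first.

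The collagenases, which cut fibrillar collagen, showed no call. MMP1 was at 31.7, 32.4 and 28.4 TPM in PSENEN siRNA libraries, against 23.7, 28.1 and 30.1 TPM in mismatch siRNA libraries. These values overlapped (log2 change 0.18, 95% interval -0.13 to 0.49, limma adjusted p = 0.609), and the change was 0.08 without mismatch siRNA library 1. With unnamed transcripts that share an intron added, mismatch siRNA library 1 was at 26.7 TPM and the other libraries were unchanged (log2 change 0.12, limma adjusted p = 0.663). MMP13 was at 16.7, 15.4 and 14.9 TPM in PSENEN siRNA libraries, against 5.85, 12.7 and 17.3 TPM in mismatch siRNA libraries. Mismatch siRNA library 1 held the lowest value and mismatch siRNA library 3 the highest of all 6. The log2 change was 0.47 (95% interval -0.39 to 1.34, limma adjusted p = 0.621), and 0.07 without mismatch siRNA library 1. MMP1, MMP13 and MMP10 lie in 1 cluster on the minus strand of chromosome 11, at 102789920 to 102798160, 102942995 to 102955734 and 102770503 to 102780628.

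MMP10, or stromelysin-2, cuts a range of matrix proteins and can activate other MMPs. By reference transcripts it was at 1.17, 0.945 and 1.25 TPM in PSENEN siRNA libraries and listed at 0 in all 3 mismatch siRNA libraries. The mismatch siRNA libraries nevertheless held MMP10 sequence, as separate assembled fragments on the same strand that carry no reference name. Mean coverage along the 1758 bases of ENST00000279441, from every assembled transcript on its strand or with no strand, was 5.18, 3.89 and 4.30 in PSENEN siRNA libraries, against 2.98, 4.57 and 4.46 in mismatch siRNA libraries. All bases were covered in the 3 PSENEN siRNA libraries, against 89.1%, 83.2% and 98.3% in mismatch siRNA libraries 1, 2 and 3. So the 0 in the mismatch siRNA libraries goes with breaks in the assembly of a transcript that was covered there too.

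The breaks were short. In mismatch siRNA library 3 only bases 385 to 405, at the start of the third exon, and the last 9 bases lacked an assembled transcript. In mismatch siRNA library 1 the inner break ran over bases 501 to 659, and in mismatch siRNA library 2 over 605 to 694 and 1083 to 1263. The 2 sequences below lie in coding sequence and are shown since the 0 of the reference transcripts goes with such breaks. In the first, the capitals mark a whole break of mismatch siRNA library 3. In the second, they mark only the bases that breaks of mismatch siRNA libraries 1 and 2 share. There the lowercase bases before the capitals lack an assembled transcript in library 1, and those after them in library 2. Each sequence has 20 bases on each side of the capitals, on the minus strand of chromosome 11 in GRCh38 (chr11:102779321-102779523 for the first and chr11:102776757-102778698 for the second, each across an intron that is not shown).
MMP10, mismatch siRNA library 3: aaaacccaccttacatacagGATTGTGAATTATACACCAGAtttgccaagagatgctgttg
MMP10, shared by mismatch siRNA libraries 1 and 2: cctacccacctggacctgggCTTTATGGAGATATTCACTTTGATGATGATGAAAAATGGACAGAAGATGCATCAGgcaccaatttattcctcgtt
The capitals span 21 and 55 bases. The whole breaks that overlap in the second sequence span 159 bases in mismatch siRNA library 1 and 90 in library 2.

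Which direction MMP10 took depended on how these fragments were counted. Without a filter on low values, the reference transcripts alone gave a log2 change of 1.08 and a call (limma adjusted p = 0.0444, with 0.168% of 27988 genes called in either direction and 0.0607% higher). With the fragments that share an intron added, MMP10 was at 1.17, 0.945 and 1.25 TPM in PSENEN siRNA libraries, against 1.87, 3.39 and 2.81 TPM in mismatch siRNA libraries, with no overlap in the opposite direction, as for 14.3% of genes tested this way (log2 change -0.78, limma adjusted p = 0.195, with 0.489% of 16362 genes called). The TPM of each fragment is scaled to its own short length, so the sum over fragments of 1 message exceeds the level of the message. Averaged over the annotated exons and put on the TPM scale, MMP10 was at 1.17, 0.945 and 1.25 in PSENEN siRNA libraries, against 0.551, 0.945 and 1.08 in mismatch siRNA libraries. These values overlapped (log2 change 0.20, 95% interval -0.22 to 0.62, limma adjusted p = 0.616, with 1.31% of 18096 genes called). Of 24474 genes with exon coverage in all 6 libraries, 11 (0.0449%) had a reference transcript in the 3 PSENEN siRNA libraries and in no mismatch siRNA library, and 34 (0.139%) the reverse.

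MMP9, or gelatinase B, was listed at 0 in all 3 PSENEN siRNA libraries. Among mismatch siRNA libraries it had a reference transcript in library 2 (0.367 TPM) and was listed at 0 in libraries 1 and 3. Coverage over its annotated exons on the TPM scale was 0 in all PSENEN siRNA libraries, against 0.405, 0.367 and 0.610 in mismatch siRNA libraries. In mismatch siRNA libraries 1, 2 and 3, 59.4%, 100% and 81.7% of the 2336 bases of ENST00000372330 were covered, at a mean coverage of 2.19, 1.78 and 2.52, while no assembled transcript of its strand lay on it in any PSENEN siRNA library. The gene lies on the plus strand of chromosome 20 at 46008908 to 46016561. By both of these measures it was under 1 TPM in every library and so below the filter. With unnamed transcripts that share an intron added, MMP9 was at 1.39, 0.367 and 1.51 TPM in mismatch siRNA libraries 1, 2 and 3. It stayed at 0 in all 3 PSENEN siRNA libraries and was still below the filter. Without the filter its log2 change for reference transcripts was -0.15 (limma adjusted p = 0.729). PSENEN siRNA libraries also had a lower mean depth and held fewer assembled transcripts. Of 83 protein-coding genes with exon coverage within the MMP9 range in every mismatch siRNA library, 4 (4.82%) had none in all 3 PSENEN siRNA libraries, and of 60 within that range in every PSENEN siRNA library, 0 had none in all 3 mismatch siRNA libraries.

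**Figure D3:**
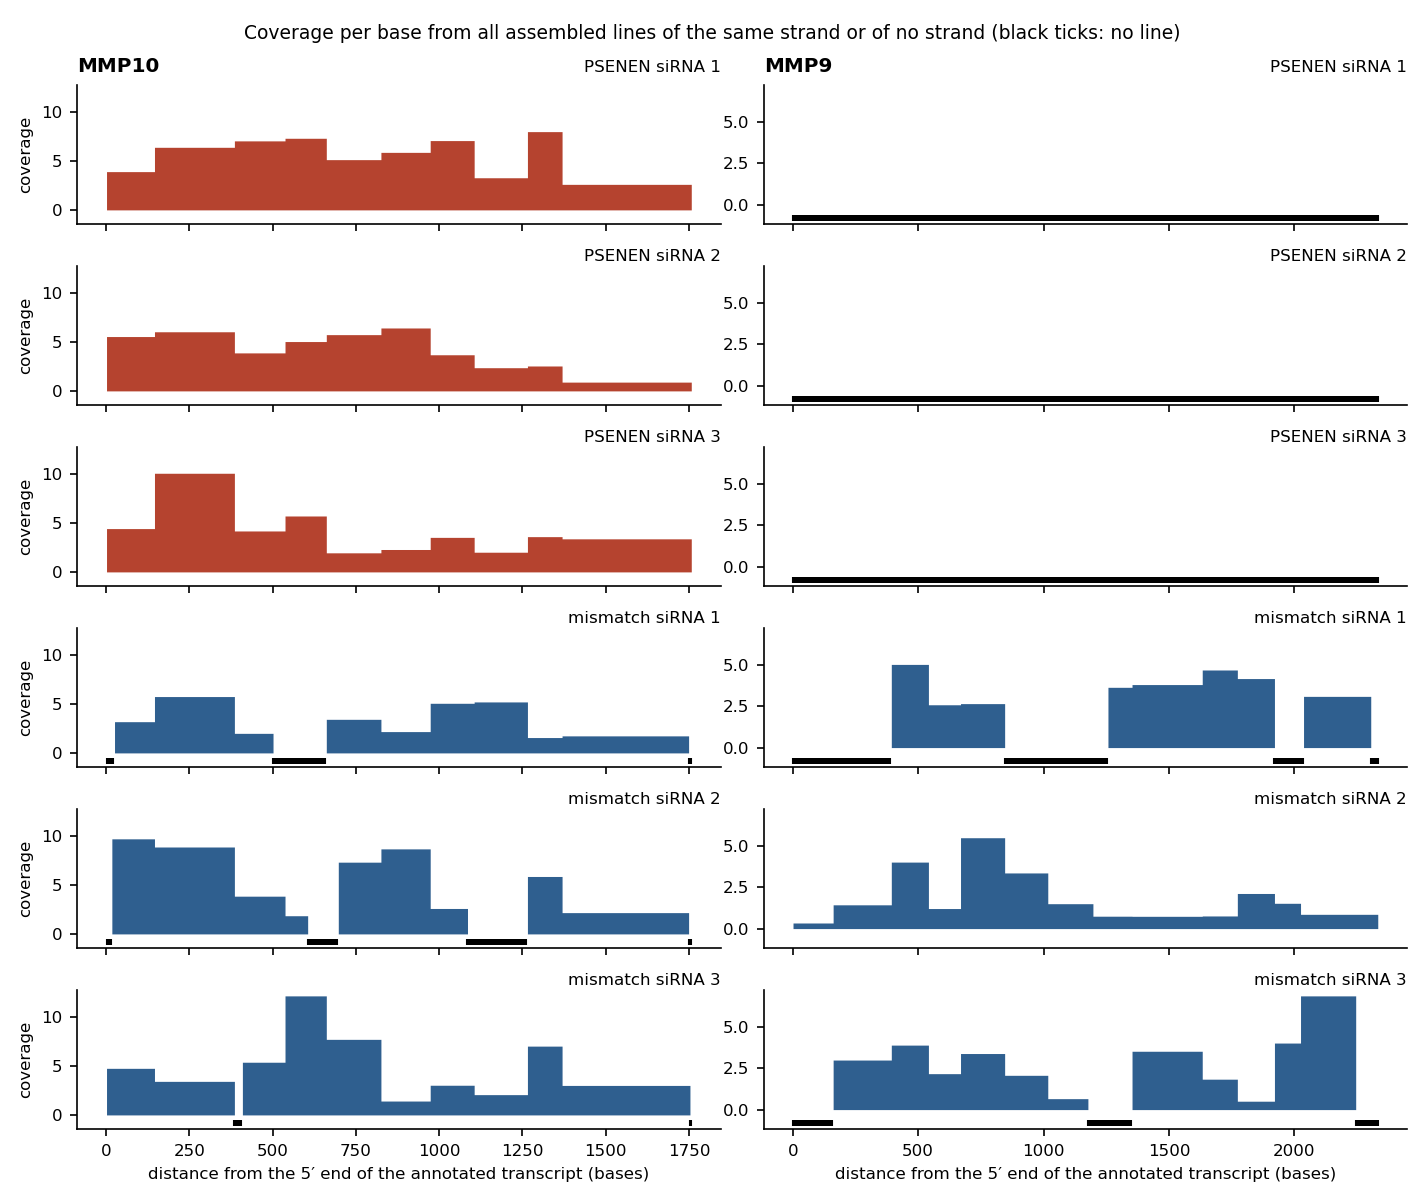
Coverage (the files give 1 value per assembled exon) against the distance from the 5′ end of the annotated transcript in bases, for MMP10 (left) and MMP9 (right), in PSENEN siRNA libraries (upper 3 rows, red) and mismatch siRNA libraries (lower 3 rows, blue); black ticks mark bases with no assembled transcript. MMP10 is covered throughout in PSENEN siRNA libraries and with breaks in mismatch siRNA libraries, at mean coverages of 3.89 to 5.18 in PSENEN siRNA libraries and 2.98 to 4.57 in mismatch siRNA libraries, and MMP9 is covered in mismatch siRNA libraries only.

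Summed over the genes, the metalloproteinases and the inhibitors both overlapped or nearly met between the groups. The 7 MMPs added up to 152, 140 and 149 TPM in PSENEN siRNA libraries, against 150, 181 and 194 TPM in mismatch siRNA libraries. The 3 TIMPs added up to 33.5, 30.6 and 28.2 TPM in PSENEN siRNA libraries, against 50.3, 41.0 and 34.2 TPM in mismatch siRNA libraries. The TIMP sums did not overlap, but 33.5 and 34.2 TPM nearly met. MMP sum over TIMP sum was 4.54, 4.58 and 5.28 in PSENEN siRNA libraries, against 2.98, 4.42 and 5.68 in mismatch siRNA libraries, so the mismatch siRNA libraries spanned the PSENEN siRNA values on both sides. Mismatch siRNA library 1 held the lowest MMP sum and the highest TIMP sum of its group, and mismatch siRNA library 3 the reverse.

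The make-up of the inhibitors also differed, which restates the lower level of TIMP2 and is not a further result. TIMP2 was 7.87%, 8.16% and 9.85% of the TIMP sum in PSENEN siRNA libraries, against 19.6%, 22.5% and 25.6% in mismatch siRNA libraries. TIMP1 made up 85.8%, 84.6% and 85.9% in PSENEN siRNA libraries, against 76.4%, 73.7% and 69.9% in mismatch siRNA libraries. Shares of the same sum are tied, so the TIMP1 share is higher where the TIMP2 share is lower. The TPM of TIMP1 itself overlapped between the groups. MMP14 alone was 46.2%, 40.7% and 52.6% of the MMP sum in PSENEN siRNA libraries and 53.2%, 49.6% and 44.0% in mismatch siRNA libraries, and these shares overlapped.

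**Figure D4:**
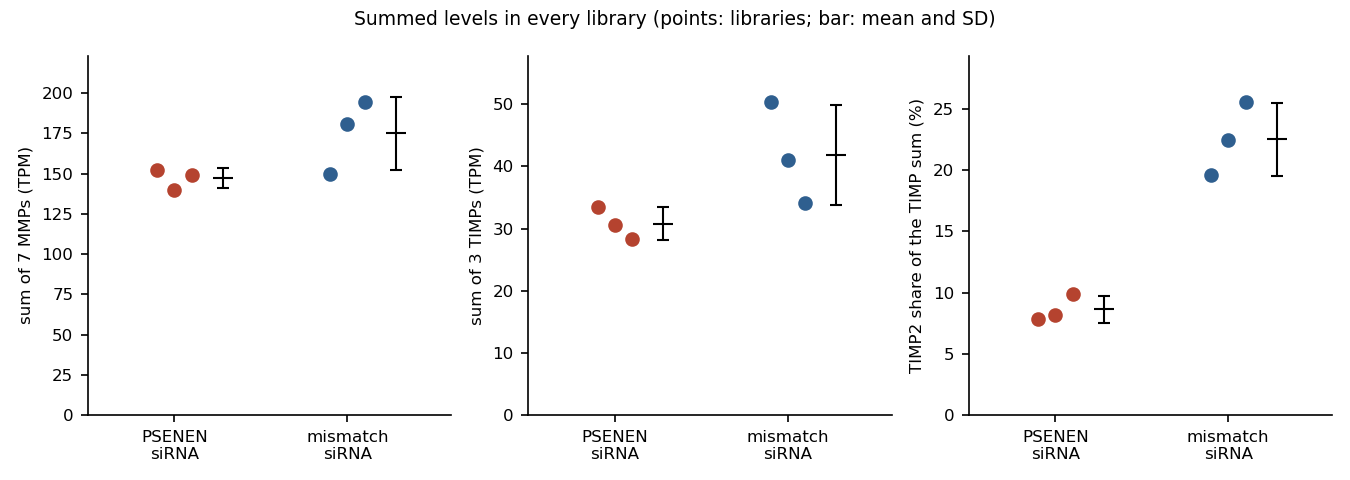
Sum of the 7 MMPs in TPM, sum of the 3 TIMPs in TPM and TIMP2 as a percentage of the TIMP sum, in the 3 PSENEN siRNA libraries (left, red) and the 3 mismatch siRNA libraries (right, blue), with the mean and SD beside the points. The MMP sums overlap, the TIMP sums reach 33.5 TPM in PSENEN siRNA libraries and start at 34.2 TPM in mismatch siRNA libraries, and the TIMP2 share is at most 9.85% in PSENEN siRNA libraries and at least 19.6% in mismatch siRNA libraries.

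Of 16 further MMP genes, 7 were listed, 4 were tested and none was called. MMP2, the gelatinase that MMP14 activates with the help of TIMP2, was the most abundant of them. It was at 22.6, 24.3 and 23.5 TPM in PSENEN siRNA libraries, against 24.3, 24.2 and 23.0 TPM in mismatch siRNA libraries. The log2 change was -0.02 with a narrow interval of -0.26 to 0.21 (limma adjusted p = 0.943). MMP3, or stromelysin-1, was picked out after its values were seen: it was at 1.56, 1.63 and 1.34 TPM in PSENEN siRNA libraries, against 0, 0.674 and 0 TPM in mismatch siRNA libraries, without a call (limma adjusted p = 0.169). Its log2 change was 1.08 for reference transcripts and 0.75 for exon coverage (limma adjusted p = 0.144), smaller once unnamed fragments were counted.

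Among 12 activating proteases and regulators of the plasminogen system, 11 were tested and 1 was called lower, where 0.281% of all genes tested were. PLAU, or urokinase, which turns plasminogen into plasmin, was at 53.4, 58.7 and 50.6 TPM in PSENEN siRNA libraries, against 129, 132 and 116 TPM in mismatch siRNA libraries (log2 change -1.20, limma adjusted p = 0.0221, and 0.0804 to 0.103 with each library left out in turn). In this list 10 of 11 changes were negative, with a median of -0.56, against 54.6% negative and a median of -0.04 over all genes tested. By exon coverage 4 of the 11 were called lower, where 0.962% of all genes tested were. Named after their values were seen, these were PLAU, the tissue plasminogen activator PLAT, the membrane protease matriptase (ST14) and the urokinase inhibitor SERPINB2. Their log2 changes were -1.16, -1.34, -0.71 and -1.07 (limma adjusted p between 0.00885 and 0.0249). With 1 library left out, PLAU kept this call in 3 of 6 fits, PLAT and ST14 in 1 and SERPINB2 in 0. FURIN, which activates the membrane-anchored MMPs, is named as the 1 positive value of the list. It was at 42.0, 38.8 and 39.9 TPM in PSENEN siRNA libraries, against 34.9, 34.7 and 27.8 TPM in mismatch siRNA libraries (log2 change 0.31, limma adjusted p = 0.371).

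Of 24 substrates in the matrix and on the cell surface, 20 were tested and 1 was called lower. SDC4, the heparan sulfate proteoglycan syndecan-4, was at 52.5, 58.0 and 55.3 TPM in PSENEN siRNA libraries, against 121, 130 and 127 TPM in mismatch siRNA libraries (log2 change -1.18, limma adjusted p = 0.0139, and 0.0594 to 0.0820 with each library left out in turn). Over all genes tested, 0.281% were called lower. The changes of 15 of the 20 were negative, with a median of -0.33, against 54.6% negative and a median of -0.04 over all genes tested. By exon coverage 4 of 19 were called lower (limma adjusted p between 0.00384 and 0.0414), where 0.962% of all genes were. Named after their values were seen, these were SDC4, the laminin chain LAMA3, the collagen IV chain COL4A2 and E-cadherin (CDH1). With 1 library left out, SDC4 kept this call in 6 of 6 fits and the other three in 0. By reference transcripts no gene was called among the tested members of 4 other lists, whose most abundant genes by the mean over both groups are given next. Among 8 other inhibitors and partners the most abundant was BSG, an inducer of MMPs on the cell surface, at 251 ± 50.0 TPM in PSENEN siRNA libraries and 222 ± 7.50 TPM in mismatch siRNA libraries (SD, n = 3 each, also for the next 3 genes). Among 9 ADAM and ADAMTS proteases it was ADAM9, at 50.0 ± 12.5 TPM in PSENEN siRNA libraries and 62.1 ± 3.52 TPM in mismatch siRNA libraries. Among 14 transcription factors it was JUNB, a subunit of AP-1, at 62.5 ± 4.64 TPM in PSENEN siRNA libraries and 74.4 ± 7.02 TPM in mismatch siRNA libraries, where ELF3 averaged 75.8 TPM. Among 8 inducers it was the cytokine gene IL1B, at 7.88 ± 1.07 TPM in PSENEN siRNA libraries and 22.8 ± 9.06 TPM in mismatch siRNA libraries, while TGFB1, HBEGF and TGFA averaged more than IL1B in PSENEN siRNA libraries (15.7, 12.9 and 11.4 TPM). IL1B passed by exon coverage (log2 change -1.40, limma adjusted p = 0.0451) and not by reference transcripts (-1.36, adjusted p = 0.123). So did CD82, a tetraspanin of the partner list, named after its values were seen. Its log2 change was -0.92 by exon coverage (limma adjusted p = 0.0471) and -1.07 by reference transcripts (limma adjusted p = 0.109). By exon coverage 0.962% of all genes were called lower. With 1 library left out, IL1B kept the exon coverage call in 1 of 6 fits and CD82 in 0.

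**Figure D5:**
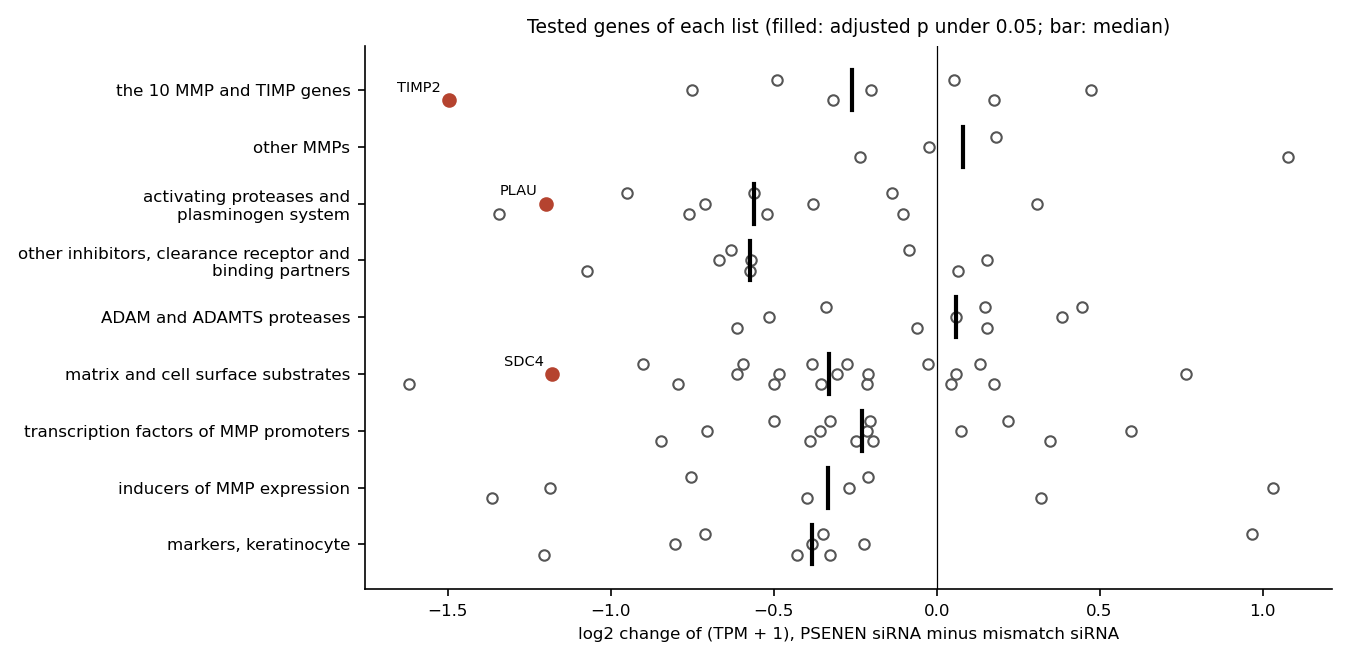
Log2 change, PSENEN siRNA minus mismatch siRNA, of every tested gene of the MMP and TIMP set, 7 related lists and the keratinocyte markers, with the median of each list as a bar; filled points passed an adjusted p under 0.05. TIMP2, PLAU and SDC4 are filled, at -1.50, -1.20 and -1.18, and the list medians run from -0.57 to 0.08.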

How the data were processed

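The 6 deposited files are transcript assemblies made by StringTie, 1 per library, per the file headers, with TPM, FPKM and coverage per base for each transcript as the authors deposited them. These values hold no read counts, so no counting intervals are given. For the aligner of these files, read length and strandedness the sources used here give nothing. The submitters' processing notes list Bowtie 0.12.2 with mm8 and mm9, builds of the mouse genome, while the files hold human genes. Of 92476 reference transcripts in the files, 92263 were in GENCODE 29 (GRCh38), and 98.4% of these 92263 had the same position there.

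TPM was summed per gene over transcripts with a reference gene name, which held 66.4% to 68.6% of each library. Group was tested by limma (version 3.58.1, R 4.3.3) with a trend of variance on level, on log2(TPM + 1), for genes that reached 1 TPM in 3 or more libraries, two-sided, with 4 residual degrees of freedom before moderation and Benjamini-Hochberg adjustment over all genes. Calls were made at an adjusted p under 0.05. Exon coverage is the mean coverage of a gene's annotated exons from all assembled transcripts of its strand or of no strand, scaled to TPM; it was added after the data were seen. Members and lists were chosen with earlier results of these data known. Named genes were the 10 members, the called or else the most abundant gene of each list, and the 3 genes most like a called member. Other genes are named for comparison or after their values were seen. The limma fit alone was tested on simulated data, with known changes given only to more abundant genes. The reading of the assemblies and the exon coverage were not tested in this way. Alternatives were pseudocounts of 0.1 and 5, no filter, a minimum of 5 TPM, FPKM, 2 other scalings, no trend, a replicate block, assembled bases, added transcripts that share an intron, exon coverage and leaving out each library. Python 3.11.15, pandas 2.3.3, bedtools 2.31.1 and matplotlib 3.10.9 were used.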

Additional observations from a re-analysis of the deposited data

How the results depend on the processing

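Under 18 alternatives, MMP1, MMP13, MMP14, MMP15, MMP28 and TIMP1 kept their direction and stayed uncalled, though leaving out 1 library moved MMP1 to 0.08, MMP13 to 0.07, MMP14 to -0.19 and TIMP1 to -0.034 at the least. TIMP2 stayed lower in all 18, between -1.77 and -0.90 on the log2 scale, and was called in 11, with an adjusted p of 0.00921 to 0.306. TIMP3 (0.05, not called) ranged from -0.0443 to 0.226 when 1 library was left out, below 0 without PSENEN siRNA library 1 (-0.026) or 2 (-0.0443). Of the 10 genes, 1 was called, against 2 with no filter (MMP10 as well), 0 with the replicate block and 0 without any single library. Over all genes 64 were called, against 28 with a pseudocount of 0.1, 237 with exon coverage, 1 with the replicate block and 7 to 16 without 1 library; more were higher than lower when a mismatch siRNA library was left out. Over transcripts 97 were called, against 40 with no filter, 34 with a minimum of 5 TPM, 184 with assembled bases, 0 with the replicate block and 20 to 39 without 1 library. The replicate block gave TIMP2 an adjusted p of 0.306 with 2 residual degrees of freedom. The labels do not pair equal numbers, and deviations of same-numbered libraries from their group means correlated at -0.0489, 6.51e-05 and -0.0142 across genes. With 3 libraries per group these deviations are tied within a group, so they cannot decide whether libraries were paired. By exon coverage TIMP2 was not called without PSENEN siRNA library 2 or 3 or mismatch siRNA library 2 (adjusted p 0.0345 to 0.0619 over the 6 fits). SDC4 was called in all 6 such fits, PLAU in 3, PLAT, ST14, IL1B and KRT17 in 1 each, and SERPINB2, CD82, COL4A2, LAMA3 and CDH1 in 0. The cause of these shifts was not tested. Low coverage limits MMP9 and MMP10, whose reference sums depend on breaks in the assembly.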
